A study of Mus musculus with 9 samples.

Results

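Yap1, Wwtr1 (the gene of TAZ) and the TEAD genes Tead1, Tead2, Tead3 and Tead4 were followed together with Vgll3, Ankrd1, Amotl2 and Lats2 in mouse hepatic stellate cells, across quiescence, activation in culture and Cav1 siRNA. These 10 genes of 37008 on the array were taken by name, and every non-control probe with one of those names was read, which gave 18 of 56605 probes. All 18 probes passed the filter on dim probes, which asks that a probe exceed background on each of the 3 arrays of some group. No cutoff on their values was applied, but earlier results of these data were known when the genes were chosen.

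Hepatic stellate cells store vitamin A around the sinusoids of the liver and turn into contractile, collagen-producing myofibroblasts when activated. Primary cells came from C57BL/6 mice at an age of 10 weeks, and 9 single-colour arrays covered 3 groups of 3. The quiescent cells (labelled qhsc) had no treatment. The activated cells had been cultured for 7 days on hard plates and were then given 5 nM of a control siRNA (labelled nc) or of an siRNA against Cav1 (labelled si-cav) overnight, so both activated groups share the plate, the culture and the transfection. Cav1 encodes caveolin-1, the coat protein of caveolae. The labels name the strain and no other allele. When the quiescent cells were taken is not given, nor is whether a group's 3 samples are different mice or different cultures. The p-values therefore measure only the spread between these samples, which may be technical.

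In the Hippo pathway, the kinases MST1 and MST2 activate the kinases LATS1 and LATS2, which phosphorylate the coactivators YAP and TAZ and hold them in the cytoplasm. Unphosphorylated YAP and TAZ enter the nucleus and, having no DNA-binding domain of their own, act through TEAD transcription factors, and vestigial-like proteins such as VGLL3 bind the same surface of TEADs. Stiff substrates and cytoskeletal tension favour nuclear YAP and TAZ, and YAP is known to be active in stellate cells that are becoming myofibroblasts. Arrays measure RNA and say nothing of phosphorylation or of the place of these proteins in the cell.

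TEAD factors bind the core sequence CATTCC, which reads GGAATG on the other strand, so the bases before the annotated start sites are shown for 4 genes that hold this core there. Vgll3 and Ankrd1 were chosen because they were above background on few or none of the quiescent arrays, Yap1 because it is the coactivator itself, and Amotl2 because its product restrains YAP. Each run is 250 bases long, ends at the base before the start site, is written 5′ to 3′ on the strand of the gene, and comes from RefSeq on GRCm38.p6. Capitals mark the core in either orientation.
Vgll3, chr16:65814939-65815188, plus strand: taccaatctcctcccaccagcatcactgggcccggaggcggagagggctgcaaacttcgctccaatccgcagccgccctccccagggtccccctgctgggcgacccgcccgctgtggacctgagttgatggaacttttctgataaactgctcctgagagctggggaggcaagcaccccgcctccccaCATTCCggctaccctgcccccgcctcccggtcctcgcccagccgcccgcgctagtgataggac
Ankrd1, chr19:36119845-36120094, minus strand: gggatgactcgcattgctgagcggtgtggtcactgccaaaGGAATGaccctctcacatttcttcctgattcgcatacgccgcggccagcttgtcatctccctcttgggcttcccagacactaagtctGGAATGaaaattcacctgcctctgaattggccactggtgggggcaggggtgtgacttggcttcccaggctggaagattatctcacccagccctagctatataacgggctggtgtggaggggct
Yap1, chr9:8004597-8004846, minus strand: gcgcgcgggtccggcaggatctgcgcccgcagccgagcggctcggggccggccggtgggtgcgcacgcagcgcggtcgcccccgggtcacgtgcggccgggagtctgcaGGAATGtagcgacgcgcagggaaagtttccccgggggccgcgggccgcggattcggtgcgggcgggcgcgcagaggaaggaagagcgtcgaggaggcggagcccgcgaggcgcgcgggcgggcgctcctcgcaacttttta
Amotl2, chr9:102717554-102717803, plus strand: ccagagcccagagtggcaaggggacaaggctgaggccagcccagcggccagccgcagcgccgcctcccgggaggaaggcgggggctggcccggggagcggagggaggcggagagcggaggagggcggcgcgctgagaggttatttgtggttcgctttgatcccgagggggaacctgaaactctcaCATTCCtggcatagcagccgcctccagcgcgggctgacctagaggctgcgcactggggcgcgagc

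Each array probe of these genes is 60 bases long, and the first 30 bases of those on which the results turn are given here with the mm9 position of the whole probe, per the deposited files. The pair for Yap1 is shown because the probes disagreed, the pair for Vgll3 because both were below background in quiescent cells, and Tead1 because its change was the largest among the TEAD genes.
Yap1, bright probe, chr9:7932025-7932084, minus strand: ggctgtagtaggtagcatacaggtaagaac
Yap1, dim probe, chr9:7997029-7997088, minus strand: gtgtctctcactgtctctcatctctcacca
Vgll3, bright probe, chr16:65861787-65861846, plus strand: tctatatagtccagcttatcttaacattta
Vgll3, dim probe, chr16:65866498-65866557, plus strand: tcttcaaatgcaggacttataactgtgtca
Tead1, bright probe, chr7:120049844-120049903, plus strand: ttcaaaaggcatttggctaaacctcccggc
Wwtr1, single probe, chr3:57262551-57262610, minus strand: aggatgggttgtgcagaatgactttagaga
Ankrd1, single probe, chr19:36186809-36186868, minus strand: cccctttgtgttctcacttgcataaagcta

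Levels are log2 signals relative to the 75th percentile of the array's non-control spots, so 0 is the signal of that percentile. Levels of different probes are not compared, because probes differ in brightness. The targeted gene Cav1 read -1.34, -1.12 and -1.09 with control siRNA and -2.87, -2.89 and -3.07 with its own siRNA, which is 29.4% of the control level, a log2 difference of -1.76 (SE 0.24, n = 3 arrays a group, adjusted p = 0.145 in limma over 23965 genes). All 3 quiescent arrays shared slide 1 with control-siRNA array 1, while the remaining 5 arrays were on slide 2. Between 53.6 and 60.2% of spots were above background on quiescent arrays, against 61.7 to 70.3% on the activated arrays.

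Summed markers of hepatocytes, sinusoidal endothelium and macrophages were far brighter on the quiescent arrays than on the activated ones. The summed linear signal of 10 hepatocyte markers, on the scale where 1 is the array's 75th percentile, ranged from 803 to 1076.6 on quiescent arrays, from 0.476 to 0.526 on control-siRNA arrays and from 0.380 to 0.412 on Cav1-siRNA arrays. All 10 were above background on every quiescent array, and 3 on every control-siRNA array. Apoa1, Ttr, Pck1, Fbp1, Hnf4a and Cps1 were above background on no control-siRNA array. The 10 markers of sinusoidal endothelium summed to 333 to 563 and then 0.551 to 0.642. Of these, 6 were above background on every control-siRNA array, and Cdh5, Tek and Gpr182 on none. The 10 macrophage markers summed to 232 to 389 and then 9.38 to 10.3. Of these, 7 were above background on every control-siRNA array, and Clec4f, Vsig4 and Timd4 on none. Other lists moved the other way: the 8 cholangiocyte markers went from 5.06 to 7.35 up to 27.4 to 33.2 with Epcam and Cftr above background on no control-siRNA array, and the 11 mesothelial and portal fibroblast markers on the array from 17.6 to 36.4 up to 225 to 240. The 6 myofibroblast markers went from 6.21 to 15.2 up to 685 to 706.

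Of the 12 stellate markers, 11 were above background on all 3 quiescent arrays, and their sum ranged from 12.8 to 37.1 there and from 23.3 to 26.3 on control-siRNA arrays, where Lrat and Rgs5 were above background on none. Among the quiescent arrays, array 2 had the highest stellate, myofibroblast, endothelial and cholangiocyte sums. Its hepatocyte sum, its macrophage sum and its mesothelial and portal fibroblast sum were the lowest of the quiescent arrays. The part of these other cells in the differences between quiescent and activated samples was not tested. In such bulk samples a change in the share of cells of a type and a change in the RNA per cell cannot be told apart.

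All 10 genes were higher in control-siRNA activated cells than in quiescent cells. This comparison asks how transcripts of the Hippo effectors differ between cells activated in culture, with a control transfection, and the quiescent samples. Markers of other liver cells were bright in the quiescent samples, and the part of those cells in these differences was not tested. Differences ranged from 0.71 for Yap1 to a fitted 7.99 for Vgll3 on the log2 scale, with a median of 1.55 over the 10 genes against 0.32 over all genes. Each of the 10 passed an adjusted p of 0.05 (limma over all 9 arrays, Benjamini-Hochberg over 23965 genes). Vgll3 and Ankrd1 passed the filter on dim probes only through the activated groups, where they are high, so their calls follow in part from that filter. A filter on all 9 arrays leaves the other 8 genes, each of them called, with a median of 1.24 against 0.21 over all genes. The background of such calls was high: 68.1% of all genes passed in either direction, 42.1% of all genes were called higher and 26.0% were called lower. Every control-siRNA array lay above every quiescent array for 10 of 10 genes, which held for 42.8% of all genes.

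**Figure D1:**
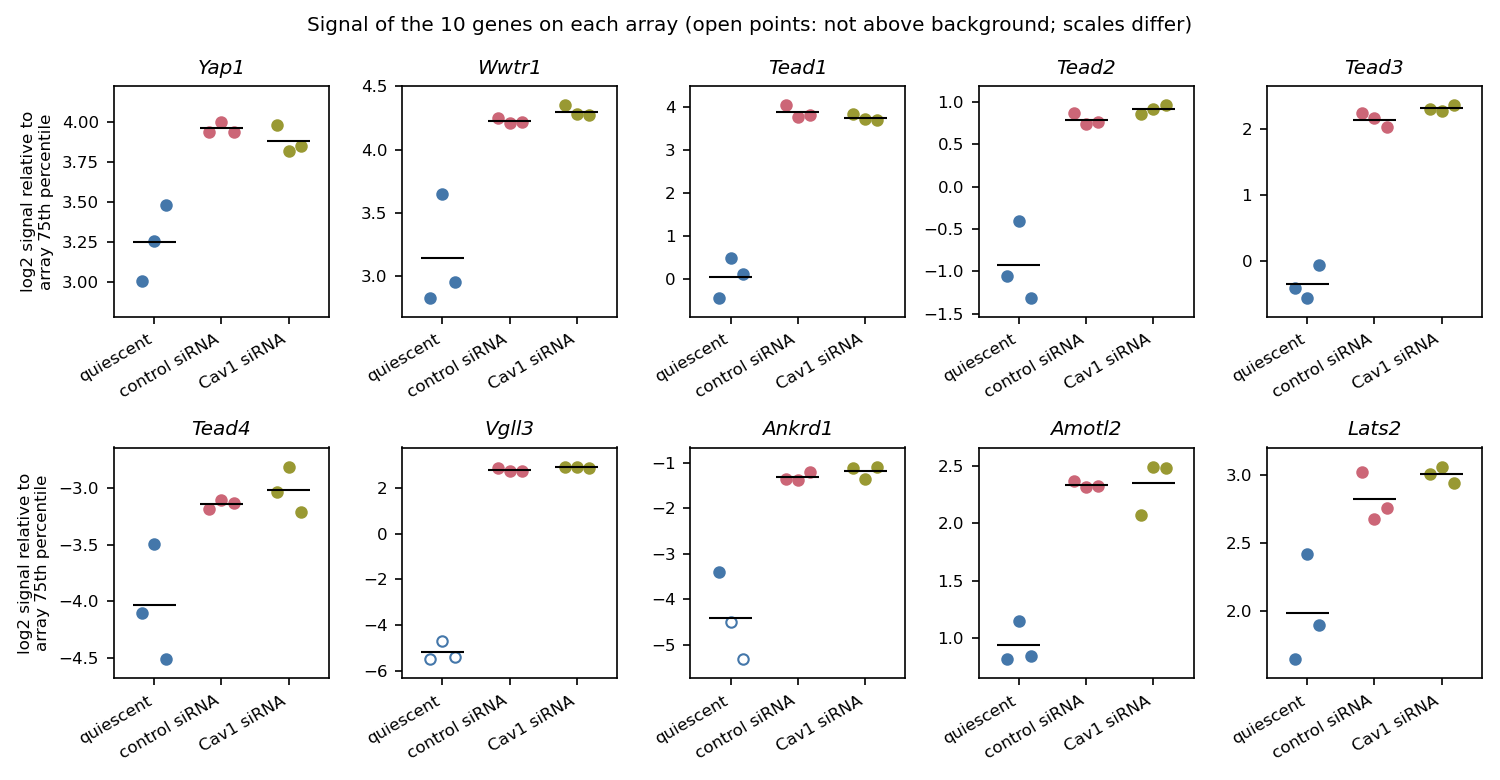
Log2 signal relative to the array's 75th percentile (vertical axes, each gene on its own scale) for the brightest probe of each of the 10 genes, on 3 quiescent, 3 control-siRNA and 3 Cav1-siRNA arrays. Each point is an array, open points are not above background and lines are group means; in every panel the quiescent points lie below the control-siRNA points, while control-siRNA and Cav1-siRNA points lie close together.

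Both coactivator genes rose. Yap1, which encodes YAP, read 3.01, 3.26 and 3.48 in quiescent cells, 3.94, 4.0 and 3.94 with control siRNA, and 3.98, 3.82 and 3.85 with Cav1 siRNA. The groups of quiescent and activated arrays did not overlap, and the mean rose from 3.25 ± 0.23 to 3.96 ± 0.03 (SD, n = 3 each). This was a 1.63-fold rise (log2 0.71, SE 0.15, 95% confidence interval 0.37 to 1.05, adjusted p = 0.0025 in limma).

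The Yap1 rise was seen with the bright probe and not with the dim one. The dim probe, which the files assign to an Ensembl transcript of Yap1 and place nearer the 5′ end of the gene, read -0.10, 0.14 and -1.24 on quiescent arrays and -0.09, -0.19 and -0.11 on control-siRNA arrays. These ranges overlap, since quiescent array 3 stood lower than the other two and the remaining quiescent arrays lay close to the activated ones. The difference was 0.27 (SE 0.31, adjusted p = 0.464 in limma over 36817 probes).

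Wwtr1, which encodes TAZ, had 1 probe. It read 2.83, 3.65 and 2.95 on quiescent arrays and 4.25, 4.21 and 4.22 on control-siRNA arrays, so that quiescent array 2 came closest to the activated level without reaching it. The mean rose from 3.14 ± 0.44 to 4.23 ± 0.02 (SD, n = 3 each), a 2.12-fold rise (log2 1.08, SE 0.21, interval 0.61 to 1.55, adjusted p = 0.0014 in limma).

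The 4 TEAD genes, whose products carry the DNA-binding domain of the complex, rose by very different amounts. Tead1 went from -0.44, 0.48 and 0.10 on quiescent arrays to 4.04, 3.76 and 3.82 on control-siRNA arrays. The lowest activated array thus stood more than 3 log2 units above the highest quiescent one, and the fitted rise was 14.1-fold (log2 3.82, SE 0.22, interval 3.32 to 4.33, adjusted p = 5.3e-07). Its 2 other probes rose by 2.64 (SE 0.21) and 3.01 (SE 0.18) on the log2 scale, both called over all probes, which is 6.23-fold and 8.08-fold.

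Tead3 had 1 probe and read -0.41, -0.55 and -0.05 on quiescent arrays and 2.24, 2.16 and 2.03 on control-siRNA arrays, a 5.59-fold rise (log2 2.48, SE 0.16, interval 2.12 to 2.84, adjusted p = 1.0e-06 in limma). Tead2 read -1.05, -0.40 and -1.31 and then 0.87, 0.74 and 0.76, a 3.27-fold rise (log2 1.71, SE 0.22, interval 1.22 to 2.21, adjusted p = 1.1e-04 in limma). The other Tead2 probe rose by 1.70 (SE 0.28). For the brightest probes, the confidence interval of Tead1 lies above those of the other TEAD genes. The intervals of Tead3 and Tead2, and of Tead2 and Tead4, overlap in part. The other Tead1 probes, at 2.64 (SE 0.21) and 3.01 (SE 0.18), stood nearer to the Tead3 value of 2.48, so the gap depends on the probe.

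The Tead4 call depended on the processing. Its brighter probe read -4.10, -3.49 and -4.51 on quiescent arrays and -3.18, -3.10 and -3.13 on control-siRNA arrays, all above background. The rise was 1.86-fold (log2 0.89, SE 0.24, interval 0.34 to 1.45, adjusted p = 0.00973 in limma). With normexp background correction and 75th-percentile scaling the difference was -0.04 (adjusted p = 0.819 in limma), which ends the call. With normexp and quantile normalization the difference was 0.38 and the call stayed (adjusted p = 0.0064 in limma). The other Tead4 probe rose by a fitted 1.85 (SE 0.34) from a level that was above background on no quiescent array.

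Vgll3, a vestigial-like cofactor of TEADs, showed the largest difference of the 10. It was above background on none of the quiescent arrays, where its signal was -5.50, -4.71 and -5.41, and above background on every activated array, at 2.86, 2.74 and 2.74 with the control siRNA. Since the quiescent values are not measured levels, the rise is a bound: at least 215-fold higher in control-siRNA cells (adjusted p = 4.7e-09 for the fitted difference of 7.99, SE 0.21). The bound sets the control-siRNA mean against, on each quiescent array, the higher of the probe's own signal and the lowest signal called above background. The second Vgll3 probe, also above background on no quiescent array, was at least 70.6-fold higher, from -7.61, -6.24 and -7.49 to 1.12, 1.19 and 1.21. With normexp background correction the fitted difference of the bright probe was smaller, at 5.37 with percentile scaling and 5.68 with quantile normalization. The bounds are therefore specific to the processing without normexp and are not a minimum over all settings.

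Ankrd1, Amotl2 and Lats2 are targets of YAP and TAZ, the last as negative feedback. Ankrd1, which encodes an ankyrin-repeat protein of the sarcomere and nucleus, read -3.39, -4.50 and -5.31 on quiescent arrays, where it was above background on 1 array, and -1.36, -1.38 and -1.20 on control-siRNA arrays. The fitted rise was 8.49-fold (log2 3.09, SE 0.40, interval 2.18 to 3.99, adjusted p = 1.1e-04 in limma), with the largest SE of the 10. Since most of its quiescent signals were not above background, this fold and interval are not a measured ratio of levels. Under normexp background correction it was 1.37 with percentile scaling and 1.73 with quantile normalization on the log2 scale, and it stayed called in both.

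Amotl2 encodes an angiomotin-like protein that binds YAP and keeps it out of the nucleus. It read 0.82, 1.15 and 0.85 on quiescent arrays and 2.37, 2.31 and 2.32 on control-siRNA arrays. The quiescent values lie close together, and the rise was 2.63-fold (log2 1.40, SE 0.16, interval 1.02 to 1.77, adjusted p = 6.2e-05 in limma).

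Lats2, the kinase that phosphorylates YAP and TAZ, read 1.65, 2.42 and 1.90 on quiescent arrays and 3.02, 2.68 and 2.76 on control-siRNA arrays. Quiescent array 2 came closest to the activated arrays, and the rise was 1.78-fold (log2 0.83, SE 0.20, interval 0.37 to 1.30, adjusted p = 0.00564 in limma). Its 2 other probes, of which 1 is placed on another transcript record of the gene, rose by 0.75 (SE 0.25) and 1.00 (SE 0.19) and were called too.

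**Figure D2:**
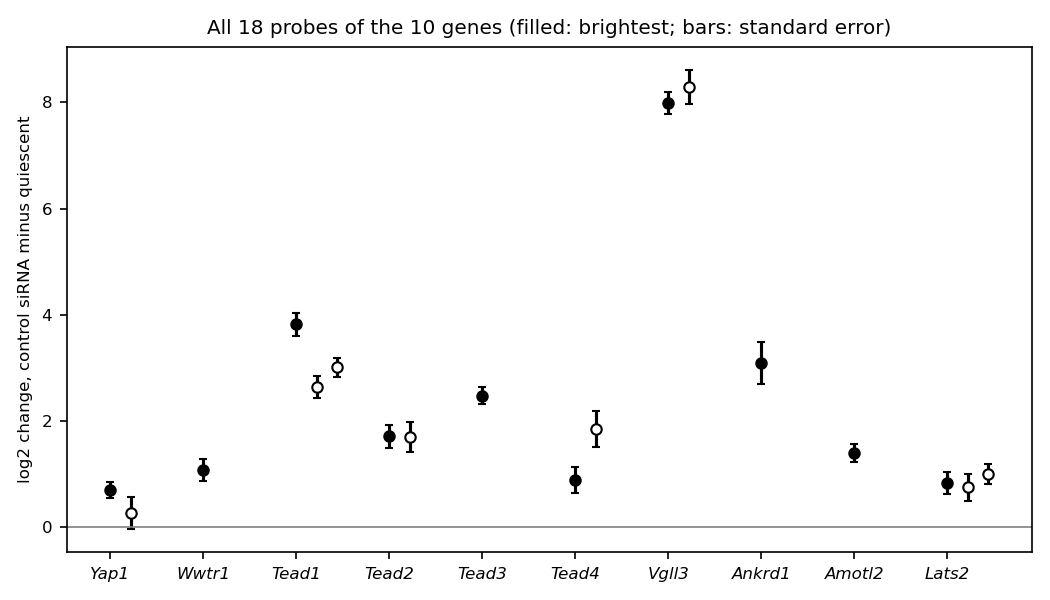
Log2 difference between control-siRNA and quiescent cells (vertical axis) for all 18 probes of the 10 genes, with bars of 1 SE. Filled points are the brightest probe of a gene. Probes of Tead1, Lats2, Tead2 and Vgll3 point the same way, and the dim Yap1 probe, at 0.27, is the 1 probe that was not called.

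Of the 18 probes, 17 were called higher and 0 lower, beside 43.0% of all 36817 probes called higher. Both Vgll3 probes, the Ankrd1 probe and the dimmer Tead4 probe passed the filter on dim probes only through the activated groups. Their calls therefore follow in part from that filter. The quiescent arrays varied more among themselves than the activated ones. The SD of the 10 genes ranged from 0.18 to 0.96 in quiescent cells with a median of 0.44, from 0.02 to 0.18 in control-siRNA cells with a median of 0.07, and from 0.03 to 0.24 in Cav1-siRNA cells with a median of 0.06. Over all genes the median SD was 0.35, 0.16 and 0.12 in the same order.

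Since quiescent cells were on slide 1 only, the 1 control-siRNA array of that slide was set against them alone. It lay above all 3 quiescent arrays for 10 of 10 genes, as it did for 48.3% of all genes. Within slide 1 the lone control-siRNA array is assumed to vary like the quiescent ones, from which the whole spread of that fit comes. In it, 6 of the 10 genes were called against 31.8% of all genes. Yap1 (0.69, adjusted p = 0.259), Wwtr1 (1.1, adjusted p = 0.131), Tead4 (0.85, adjusted p = 0.255) and Lats2 (1.04, adjusted p = 0.139) kept their differences in limma but not their calls. With slide as a block, 9 of the 10 were called against 52.4% of all genes, and Tead4 was not (0.85, adjusted p = 0.0875).

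Cav1 siRNA was followed by no called difference in any of the 10 genes. This comparison asks whether lower Cav1 in activated cells alters the transcripts of the Hippo effectors. Differences from control siRNA ran from -0.12 for Tead1 to 0.18 for Lats2 on the log2 scale, and the median was 0.12 over the 10 genes against -0.04 over all genes. None of the 10 passed, and 0 of 23965 genes, or 0%, passed in limma (1189 genes, 4.96%, and none of the 10 had an unadjusted p under 0.05). With limma's array weights 656 genes passed, again none of the 10.

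**Figure D3:**
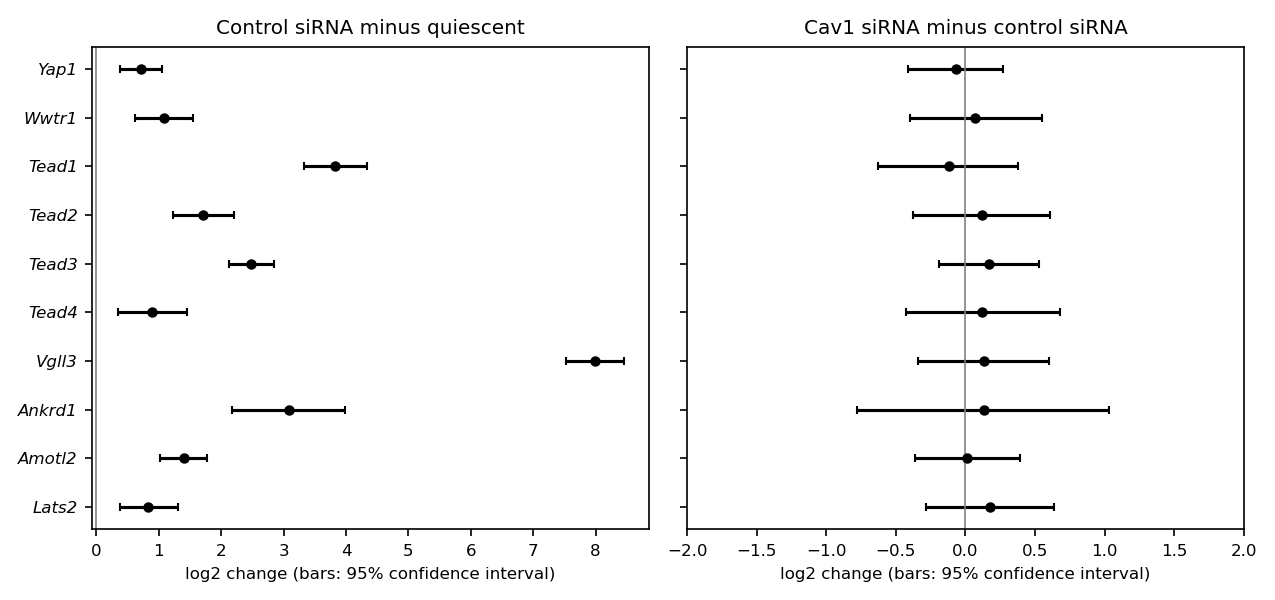
Log2 difference with its 95% confidence interval (horizontal axes) for the brightest probe of each of the 10 genes, control siRNA minus quiescent in one panel and Cav1 siRNA minus control siRNA in the other. All 10 intervals lie above 0 in the first comparison and all 10 include 0 in the second; the Vgll3 value of 7.99 is fitted from quiescent signals that are not above background.

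A p that misses the threshold does not show that the groups act alike, so the intervals are given. They come from the fit over all arrays, which pools the spread of every group, the quiescent one included. The median SD of the followed genes was 0.44 in quiescent cells, 0.07 with control siRNA and 0.06 with Cav1 siRNA. The widths therefore reflect in part quiescent arrays that are not in this comparison. With only the compared groups fitted, none of these genes was called either. Yap1 differed by -0.07 (interval -0.41 to 0.27) and Wwtr1, at 4.35, 4.28 and 4.27 with Cav1 siRNA, by 0.07 (interval -0.40 to 0.55). Among the TEAD genes Tead1, at 3.83, 3.72 and 3.70, differed by -0.12 (interval -0.63 to 0.38). Tead2, at 0.86, 0.91 and 0.96, differed by 0.12 (interval -0.38 to 0.61), Tead3, at 2.30, 2.28 and 2.36, by 0.17 (interval -0.19 to 0.53), and Tead4, at -3.03, -2.81 and -3.21, by 0.12 (interval -0.43 to 0.68). None of these 6 intervals reaches 0.71, the size of the Yap1 difference between control-siRNA and quiescent samples, in either direction.

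Vgll3 read 2.92, 2.93 and 2.87 with Cav1 siRNA, a difference of 0.13 (interval -0.34 to 0.60). Amotl2 read 2.07, 2.49 and 2.48, with Cav1-siRNA array 1 below every control-siRNA array and the others above, a difference of 0.01 (interval -0.36 to 0.39). Lats2 read 3.01, 3.06 and 2.94, a difference of 0.18 (interval -0.28 to 0.64). Ankrd1, a transcript often used to read YAP activity, read -1.11, -1.36 and -1.09, a difference of 0.13 with the widest interval, -0.78 to 1.03. For Wwtr1, Tead3 and Vgll3 every Cav1-siRNA array lay above every control-siRNA array, which is 3 of 10 genes, and 8.61% of all genes did so. Adjusted p was 0.9998 in limma for each of the 10 genes, in the same fit that pools the quiescent spread.

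The other genes of the pathway were called in both directions on activation. Among 14 upstream kinases and scaffolds, 7 were called higher, 4 lower and 3 not, beside 42.1% of all genes called higher and 26.0% lower, with a median log2 difference of 0.57 against 0.32 over all genes. Within slide 1, which holds 1 control-siRNA array, fewer genes of this list were called, as was so over all genes. Frmd6, a FERM-domain activator of the pathway, was 17.0-fold higher (4.09, SE 0.20), and Map4k4, a kinase that can act on LATS, rose by 2.84 (SE 0.21). Wwc2, a scaffold related to KIBRA, rose by 1.26 (SE 0.15), whereas Wwc1, which encodes KIBRA, fell by 1.76 (SE 0.32) and the kinase Taok3 fell by 1.16 (SE 0.16). The kinase genes nearest to YAP were split too: Lats1 rose by 1.14 (SE 0.17), Stk4, which encodes MST1, fell by 0.87 (SE 0.13), and Stk3, which encodes MST2, differed by 0.33 (SE 0.16) and was not called.

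Among 10 genes of membrane and junction inputs, 6 were called higher, 2 lower and 2 not, with a median of 1.07. Over all genes 42.1% were called higher and 26.0% lower. For the inputs, the count of lower calls was 1 without control-siRNA array 2, control-siRNA array 3 or quiescent array 1. It was also 1 with slide as a block, with median scaling and with array weights. It was 3 without quiescent array 2 and with the mean of a gene's probes. Within slide 1 it fell, as did the calls over all genes. The atypical cadherin Fat1 rose by 5.13 (SE 0.23), the phosphatase Ptpn14, a binder of YAP, by 3.87 (SE 0.23), the LIM protein Ajuba by 2.77 (SE 0.27) and the angiomotin Amot by 2.05 (SE 0.15), while the cadherin Fat4 fell by 1.29 (SE 0.23). Of 3 other vestigial-like genes, Vgll1 was not kept by the filter. Vgll2 was at least 1.29-fold higher from a quiescent signal that was not above background (adjusted p = 0.00566 in limma), and Vgll4, a competitor of YAP for TEADs, fell by 0.62 (SE 0.16). The Vgll2 call was lost with normexp background correction and percentile scaling and within slide 1, and with a filter on all 9 arrays no gene of this list was called higher. The Vgll4 call was lost with slide as a block, within slide 1, with median scaling and with the mean of its probes.

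Of 19 genes listed as YAP and TAZ targets, apart from the 10, 18 were called higher and 1 lower, beside 42.1% and 26.0% of all genes, with a median of 1.98 against 0.32 over all genes. Within slide 1, which holds 1 control-siRNA array, fewer of these targets were called higher, and fewer genes were called over all genes too. The transcription factor Foxf2 and the secreted protein Fjx1 were above background on no quiescent array. On the bound used for Vgll3, specific to the processing without normexp, they were at least 101-fold and at least 31.5-fold higher. They passed the filter on dim probes only through the activated groups, so their calls follow in part from that filter. With a filter on all 9 arrays 16 targets were called higher. In that setting 69.7% of all genes were called, and 59.6% of those calls were higher. The coagulation initiator F3 rose by 5.70 (SE 0.16), the ligand Tgfb2 by 5.23 (SE 0.15) and the ferlin Myof by 4.58 (SE 0.16). Ccn1 and Ccn2, matricellular genes commonly taken as YAP readouts, rose by 1.67 (SE 0.30) and 1.30 (SE 0.28). The exception was the kinase gene Nuak2, which fell by 1.55 (SE 0.16). Ptpn14 is in this list and in the one of inputs.

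**Figure D4:**
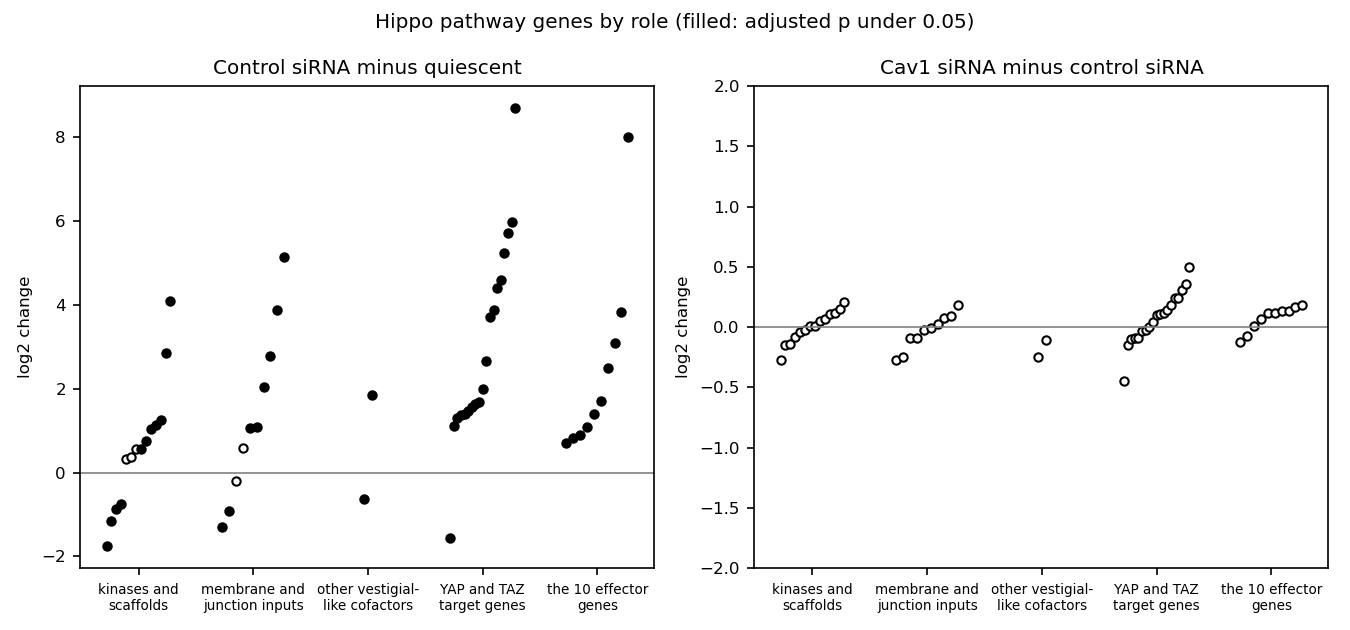
Log2 difference for the 10 genes and for the lists of other Hippo pathway genes by role, with filled points at an adjusted p under 0.05, for control siRNA minus quiescent and for Cav1 siRNA minus control siRNA. On activation the target genes lie above 0 apart from Nuak2 at -1.55, the kinases and scaffolds lie on both sides, and after Cav1 siRNA no point is filled.

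After Cav1 siRNA none of these genes passed, and the medians were 0.01 for kinases and scaffolds, -0.02 for inputs, -0.18 for the 2 vestigial-like genes and 0.10 for targets. The smallest p belonged to Nf2 among the scaffolds (-0.27, SE 0.15), Wtip among the inputs (-0.27, SE 0.22), Vgll4 (-0.11, SE 0.16) and Gadd45a among the targets (0.50, SE 0.21, adjusted p = 0.978 in limma). Ccn1 and Ccn2 differed by 0.24 (SE 0.30) and 0.36 (SE 0.28).

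RefSeq windows of 300 bases, 250 before and 50 from the annotated start, were found for 8 of the 10 genes, 12 windows in all; Tead1 and Tead4 had none in the table. The core CATTCC, on either strand, was in 9 of the 12 windows and 7 of the 8 genes, which are Wwtr1, Yap1, Amotl2, Lats2, Vgll3, Tead3 and Ankrd1. Over all windows it was in 14.7% of 32851, and in 16.6% of 27025 genes with a window. Among the listed targets it was in 4 of 12 genes, which are Axl, Ccn1, Crim1 and Ptpn14. The windows of the 10 genes had a median GC content of 66.5% against 52.7% over all windows, and the windows of a gene can overlap: both Wwtr1 windows hold the same match.

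Counted from the start site at 0, the first base of the match lay at -141 in Yap1, -136 in Wwtr1, -65 in Amotl2 and -63 in Vgll3, at -210 and -123 in Ankrd1, and at 4 in Lats2. Tead3 had matches in 2 of its 3 windows, the nearest to a start site at 2. A match is a stretch of letters and not a bound site, and no binding was measured in these cells.

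**Figure D5:**
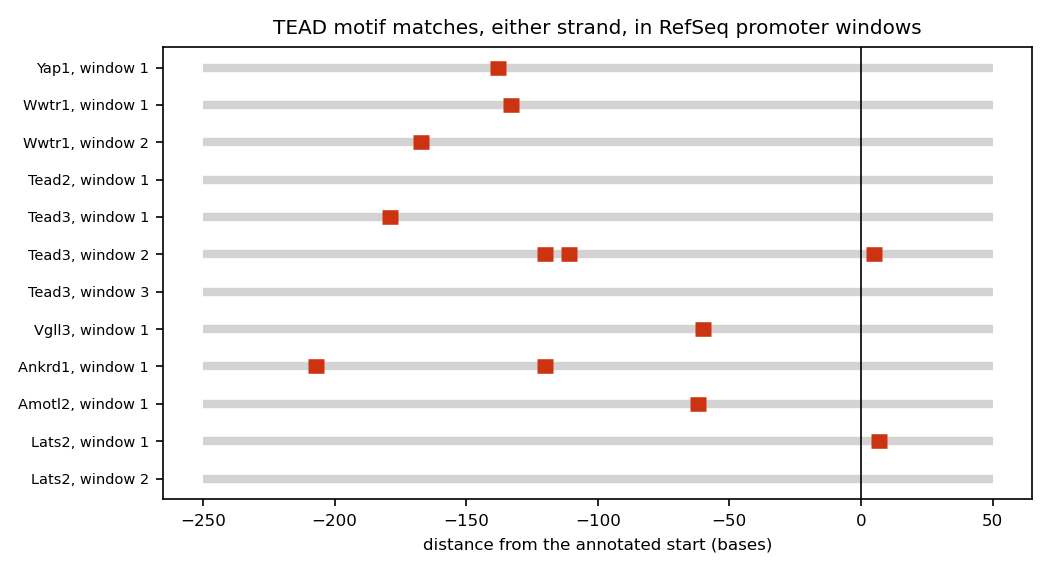
Position of each match to the TEAD core in the 12 RefSeq windows of 8 genes, as bases from the annotated start site (horizontal axis). 9 of the 12 windows hold a match, Ankrd1 has matches at -210 and -123, and the Tead2 window has none.

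Genes whose signal followed Yap1, Wwtr1 and Ankrd1 most closely were looked up among other genes above background on all arrays and named in RefSeq. These were 13113 genes, or 13114 for Ankrd1, which is itself not among them. Over the 9 arrays, Yap1 was most like Usp42 (Pearson r 0.992), Ccdc171 (0.991) and Hyls1 (0.990). Wwtr1 was most like 4632427E13Rik (0.999), Osmr (0.998) and Hoxaas2 (0.998). Ankrd1 was most like Ssbp4 (0.999), Srebf2 (0.997) and Serpinb6b (0.994). Since Ankrd1 was above background on only 1 quiescent array, its coefficients rest in part on signals that are not measured levels. The points are 3 quiescent and 6 activated arrays that share slides and culture, and the coefficients are descriptions without a test. In all, 808, 1132 and 1004 genes had r over 0.95 with Yap1, Wwtr1 and Ankrd1.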

How the data were processed

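Expression was measured on 9 single-colour Agilent arrays, and the file headers name Agilent Feature Extraction 10.7.1.1. The deposited values are processed signals, the background-subtracted intensity of each spot, not scaled between arrays, per the file headers. Probe positions are on mm9.

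Log2 signals were set relative to each array's 75th percentile of non-control spots, and spots were averaged without outliers. Probes with at least 0.5 of their spots above background on all 3 arrays of a group were kept. The brightest probe stood for its gene, giving 23965 genes. Groups were compared with limma 3.58.1 in R 4.3.3 over all 9 arrays with Benjamini-Hochberg adjustment at 0.05, tested on simulated data. Precision is limited by the number of arrays. Whether same-numbered samples were paired is not given. Correlations of same-numbered deviations were -0.11 to 0.17, which cannot settle it with 3 arrays a group.

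Named beside the 10 genes were, for each pathway list, up to 5 called genes with the largest changes, or the gene with the smallest p where none passed, and the 3 genes most like Yap1, Wwtr1 and Ankrd1. Lats1, Stk3, Stk4, Ccn1 and Ccn2 were added after their values were seen. The genes and lists were chosen with earlier results of these data known. Protein sequences were not used here.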

Additional observations from a re-analysis of the deposited data

How the results depend on the processing

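For control siRNA against quiescent cells, 6 of the 10 genes were called within slide 1 and 8 to 10 in every other setting tried; a filter on all 9 arrays leaves 8 genes to test. The Tead4 difference was -0.04 with normexp and percentile scaling. For Cav1, the difference of -1.76 passed with array weights (-1.87), normexp with percentile scaling (-1.25) or quantile normalization (-1.15), only the compared groups (-1.76), and without quiescent array 1 (-1.76, adjusted p = 0.0213 in limma); leaving out each array in turn gave -1.84 to -1.70. After Cav1 siRNA, where no gene of the 10 was called in any setting, signs turned for Amotl2 with normexp and percentile scaling (-0.09) or quantiles (-0.08), and over leave-one-out fits (-0.06 to 0.15). They also turned for Yap1 with median scaling (0.04) and its other probe (0.02), for Tead1 with another probe (0.11), and for Tead2 with the mean of probes (-0.01) or its other probe (-0.13). The cause was not tested. Calls over all genes after activation were 61.8% higher, against 46.2% with normexp and percentile scaling and 47.0% without a filter, where the median of all genes was -0.13 and -0.21. In each of these settings all genes of the 10 that were fitted lay above the median gene. With the replicate block, 10 of the 10 genes and 15837 of all genes were called after activation, and 0 after Cav1 siRNA. Calls within slide 1 fell to 7615 of all genes from 16328, with 1 control-siRNA array there. Dim probes limit Tead4, Ankrd1 and Vgll3.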
